A study of Oryza sativa with 12 samples.

Results

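The genes of DNA replication were followed in young rice panicles of 4 lines. They were chosen by words in the description of each transcript, namely minichromosome or MCM, replication factor, replication protein, DNA polymerase, origin recognition, proliferating cell nuclear and ribonucleotide or ribonucleoside reductase. This gave 72 transcripts of 63 loci, among 40722 transcripts of 34126 loci in the table of read counts. By the same words, 6 transcripts belonged to the origin recognition complex (ORC), 11 to MCM proteins, 1 to PCNA, 5 to replication factor C (RFC), 6 to replication protein A (RPA), 12 to the replicative DNA polymerases alpha, delta and epsilon, 6 to ribonucleotide reductase (RNR) and 18 to other DNA polymerases. The words also took in 5 transcripts of retroelement reverse transcriptases and, under "other", a CDT1-like transcript and a DNA (cytosine-5)-methyltransferase whose description holds the letters MCMT. The retroelement transcripts and the methyltransferase are not genes of the replication machinery, and the 47 transcripts of the first 7 roles are called the core members.

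The lines were NIL-Prl5ST-1+Pbl6ST-1, with the Prl5 and the Pbl6 (APO1) regions of the variety ST-1, NIL-Pbl6ST-1, with the Pbl6 region, NIL-Prl5ST-1, with the Prl5 region, and the recurrent parent Koshihikari, labelled wild type. Near-isogenic lines (NILs) carry a short donor segment in the background of another variety, reached here by repeated backcrossing to Koshihikari and selection with markers, so a segment can hold other genes of ST-1 besides the named locus. Prl5 lies on chromosome 5, where 6 of the member transcripts are, and Pbl6 on chromosome 6, where 8 are. Whether any of these lies inside a segment was not tested. RNA came from whole young panicles at the 2-mm stage, with 3 libraries per line and 12 in all, and the question was how gene expression differed between the lines.

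DNA replication starts where ORC marks an origin. CDC6 and CDT1 then help to load MCM2 to MCM7, the helicase that later opens the duplex. RPA covers the single strands, polymerase alpha with its primase begins each strand, RFC loads the ring-shaped PCNA onto DNA, and polymerases delta and epsilon extend the strands on that clamp. RNR makes the deoxynucleotides. In plants many of these genes are transcribed around the start of S phase under E2F factors, which the retinoblastoma-related protein holds back, and they mark dividing tissues such as the branch and spikelet meristems of a young panicle. In whole panicles, fewer dividing cells and less RNA per dividing cell cannot be told apart.

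Total counts per library lay between 16041196 and 31760529, and a count of 3 corresponded to between 0.0945 and 0.187 cpm (counts scaled to a common library size). Members took between 0.188% and 0.266% of the counts, and every library held the 5 young panicle and 6 spikelet organ marker genes looked for. The labels do not say whether libraries came from separate plants, so the p-values measure the spread between these samples. Koshihikari replicate 2 and NIL-Prl5ST-1 replicate 2 stood apart from their lines. On the first principal component of log2 cpm (34.5% of the variance), NIL-Prl5ST-1 replicate 2 lay at 24.7 and the other libraries of that line at 62.3 and 63.7, while Koshihikari replicate 2 lay at 29.4 and the others at -5.42 and 5.44. The counts of called members, their median and the transcripts named by the rule given with the processing were therefore also computed without each library.

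Of the members, 70 transcripts of 61 loci had enough counts to be tested. The remaining 2, the ferritin/ribonucleotide reductase-like Os01t0508100-01 and the retroelement Os01t0967700-01, had at most 0.546 and 0.192 cpm in any library. The test was edgeR's quasi-likelihood test fitted over all 31643 transcripts kept by the filter on low counts, and a transcript was called at a Benjamini-Hochberg adjusted p below 0.05. Fold changes are on the log2 scale, with the line named first on top and the standard error (SE) of the fit. Levels are in cpm, which are not divided by transcript length, so they are compared between lines and not between genes.

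Most calls were made between NIL-Prl5ST-1+Pbl6ST-1 and NIL-Prl5ST-1. This comparison asks what the Pbl6 segment changed where the Prl5 segment was already present. Of the 70 members, 27 rose and 6 fell in NIL-Prl5ST-1+Pbl6ST-1, which is 47.1% of them, where 25.3% of all transcripts were called. By direction, 13.2% of all transcripts were higher and 12.1% lower. At an unadjusted p below 0.05, 31 members were higher and 10 lower, where 37.9% of all transcripts had such a p, 19.8% higher and 18.1% lower. The libraries of the lines did not overlap for 22 members that were higher and 12 that were lower, where 21.3% and 20.2% of all transcripts were so. The median log2 fold change was 0.28 over the members and 0.00 over all transcripts. Of the 46 core members tested, 19 rose and 5 fell, with a median of 0.33. Counting 1 transcript per locus, 23 loci rose and 4 fell of 61. The plot of fold changes by role shows the members of 3 comparisons.

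**Figure D1:**
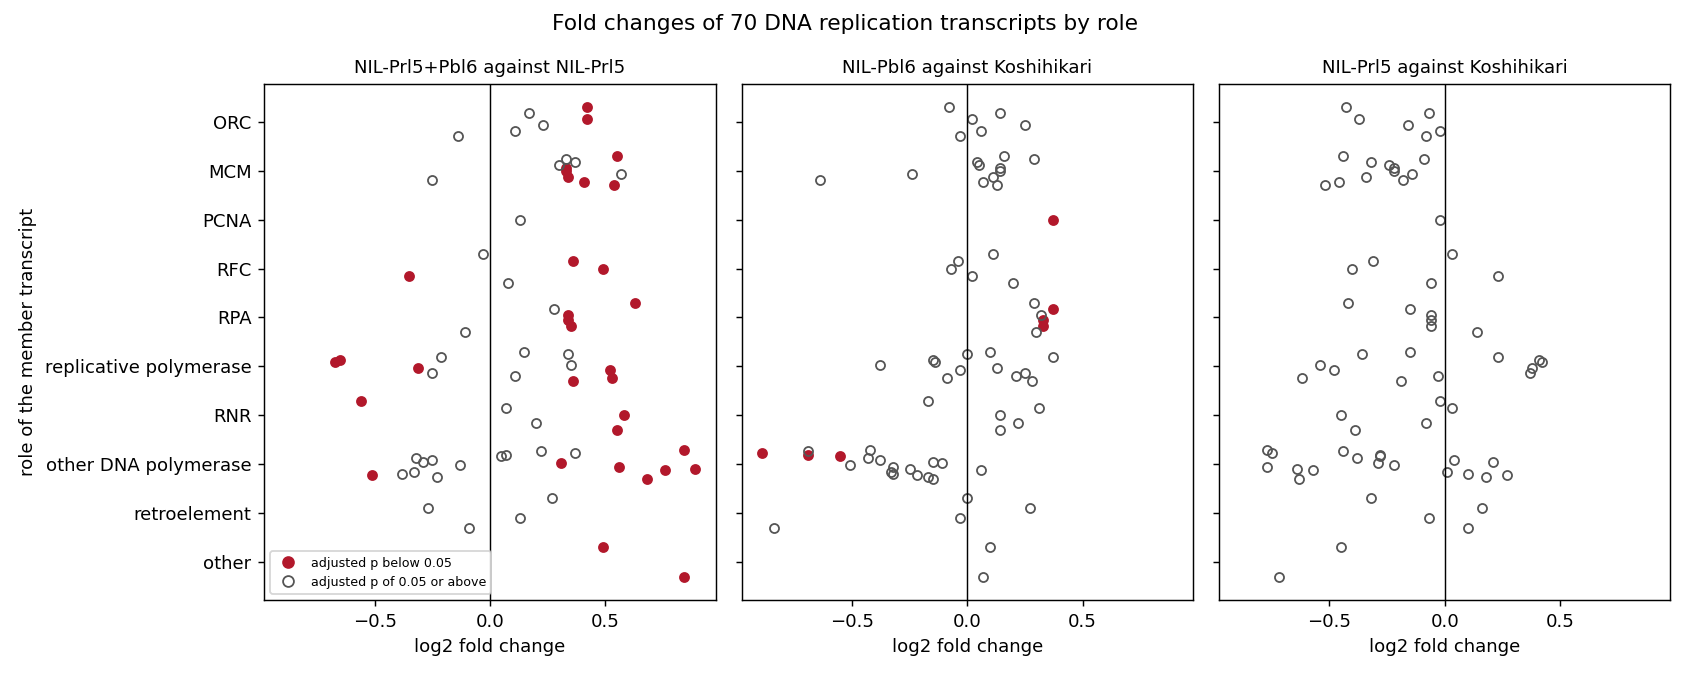
Log2 fold changes (horizontal axis) of the 70 tested DNA replication transcripts, grouped by role (vertical axis), in NIL-Prl5ST-1+Pbl6ST-1 against NIL-Prl5ST-1, NIL-Pbl6ST-1 against Koshihikari and NIL-Prl5ST-1 against Koshihikari. Filled points have an adjusted p below 0.05. There are 33, 7 and 0 of them in the panels from left to right, and in the left panel the called members lie on both sides of 0.

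Of the MCM transcripts, 10 of 11 had positive values in this comparison. MCM2 (Os11t0484300-01, described as Mcm2-prov protein), a subunit of the helicase ring, stood at 157, 182 and 185 cpm in the 3 libraries of NIL-Prl5ST-1+Pbl6ST-1, against 109, 147 and 102 cpm in NIL-Prl5ST-1. The lines did not overlap, and the log2 fold change was 0.55 (SE 0.128, adjusted p = 0.0067 by edgeR). MCM4 (Os01t0544450-01), another subunit of the ring, rose by 0.54 on the same scale (adjusted p = 0.00934). Os02t0797400-01, named only as an MCM family protein, had 109, 113 and 128 cpm in NIL-Prl5ST-1+Pbl6ST-1 and 82.7, 104 and 76.3 cpm in NIL-Prl5ST-1. Its log2 fold change was 0.41 (SE 0.118, adjusted p = 0.0192 by edgeR). MCM3 (Os05t0476200-01) rose less, by 0.33 (SE 0.114, adjusted p = 0.0459 by edgeR), and here the lowest library of NIL-Prl5ST-1+Pbl6ST-1, at 144 cpm, lay below NIL-Prl5ST-1 replicate 2, at 148 cpm. Both transcripts of that locus had nearly equal counts and count as 1 gene. In all, 6 of 11 MCM transcripts rose and none fell by this test, and both transcripts of the MCM3 locus are among the 6. The only MCM transcript with a negative value was a second, weakly expressed MCM3-like one, Os05t0173700-01, at -0.25 (adjusted p = 0.343). MCM10 (Os09t0539400-00), which acts when the helicase is switched on and is not part of the ring, had a log2 fold change of 0.33 (adjusted p = 0.18).

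Among the ORC genes, the ORC1-like Os06t0187000-01, which encodes an ATPase subunit of the complex, had 39.2, 42.7 and 47.6 cpm in NIL-Prl5ST-1+Pbl6ST-1 and 29.3, 37.6 and 29.5 cpm in NIL-Prl5ST-1. All libraries of NIL-Prl5ST-1+Pbl6ST-1 were above those of NIL-Prl5ST-1, and the log2 fold change was 0.42 (SE 0.115, adjusted p = 0.015 by edgeR). ORC3 (Os10t0402200-00) also rose, by 0.42 (adjusted p = 0.0446). The other 4 subunits tested, ORC2, ORC4, ORC5 and ORC6, had values between -0.14 and 0.23 and were not called. ORC2 (Os03t0184700-01) averaged 15.7 ± 1.33 cpm in NIL-Prl5ST-1+Pbl6ST-1 and 14.5 ± 0.88 cpm in NIL-Prl5ST-1 (SD, n = 3 each), a difference within the spread of the libraries.

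The CDT1-like transcript, Os04t0185100-01, had the smallest adjusted p of all members. CDT1 brings the MCM ring to the origin. It was at 25.3, 30.3 and 29.4 cpm in NIL-Prl5ST-1+Pbl6ST-1, at 27.6, 27.3 and 27.3 cpm in NIL-Pbl6ST-1, at 14.5, 19.4 and 13.4 cpm in NIL-Prl5ST-1 and at 24.1, 24.8 and 29.3 cpm in Koshihikari. The 3 libraries of NIL-Prl5ST-1 were below all 9 others. The log2 fold change over NIL-Prl5ST-1 was 0.84 in NIL-Prl5ST-1+Pbl6ST-1 (SE 0.134, adjusted p = 0.000632 by edgeR), and it stayed between 0.73 and 1.03 and past the threshold whichever of the 6 libraries was left out.

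The RPA complex has a large subunit that binds single strands and smaller partner subunits. Replication protein A1 (Os03t0214100-01), a large subunit, had 143, 159 and 172 cpm in NIL-Prl5ST-1+Pbl6ST-1 and 92.5, 122 and 90.4 cpm in NIL-Prl5ST-1. The lines were separate, with a log2 fold change of 0.63 (SE 0.122, adjusted p = 0.00223 by edgeR). The 3 transcripts of the RPA 70 kDa locus (Os02t0776800) rose by 0.34 to 0.35 and may share reads. The RPA 30 kDa transcript (Os02t0829100-01) had a log2 fold change of 0.28 (SE 0.117, adjusted p = 0.0949 by edgeR) and the RPA3-like Os01t0253600-01 of -0.11 (SE 0.101, adjusted p = 0.473 by edgeR). Neither of these smaller subunits was called.

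The RFC transcripts had values of both signs. RFC 110 kDa (Os11t0572100-03), described after the large subunit of the clamp loader, had 69.7, 74.9 and 88.0 cpm in NIL-Prl5ST-1+Pbl6ST-1 and 52.4, 65.6 and 47.4 cpm in NIL-Prl5ST-1, a log2 fold change of 0.49 (SE 0.124, adjusted p = 0.00996 by edgeR). Other transcripts of this locus are described as DNA ligase (Os11t0572100-01 and Os11t0572100-02, both 0.52), so reads of the locus cannot be given to either name. RFC 40 kDa (Os04t0569000-01), a small subunit, had 89.7, 101 and 79.1 cpm in NIL-Prl5ST-1+Pbl6ST-1 and 114, 98.9 and 130 cpm in NIL-Prl5ST-1. Its log2 fold change was -0.35 (SE 0.118, adjusted p = 0.0429 by edgeR), although the 101 cpm of 1 library of NIL-Prl5ST-1+Pbl6ST-1 lay above the lowest library of NIL-Prl5ST-1. RFC 36 kDa (Os02t0775200-01) and RFC4 (Os12t0176500-01), 2 more small subunits, had values of 0.08 and -0.03 and were not called. PCNA (Os02t0805200-01), which the clamp loader handles, was not called either, at 253, 279 and 239 cpm in NIL-Prl5ST-1+Pbl6ST-1 and 225, 253 and 228 cpm in NIL-Prl5ST-1 (log2 fold change 0.13, SE 0.102, adjusted p = 0.387 by edgeR).

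The catalytic subunit of polymerase delta (Os11t0186400-00) had 54, 65.6 and 68.9 cpm in NIL-Prl5ST-1+Pbl6ST-1 and 45.6, 58.6 and 44.6 cpm in NIL-Prl5ST-1. Its log2 fold change of 0.34 (SE 0.122, adjusted p = 0.0507 by edgeR) just missed the threshold. Subunit 4 of the same enzyme (Os09t0520100-01), a small accessory subunit, fell to 38.8, 37.3 and 37.5 cpm in NIL-Prl5ST-1+Pbl6ST-1, against 62.4, 50 and 67.8 cpm in NIL-Prl5ST-1. All libraries of NIL-Prl5ST-1 were higher, the log2 fold change was -0.67 (SE 0.111, adjusted p = 0.000917 by edgeR), and the second transcript of the locus gave -0.65. The Cdc27-like subunit of polymerase delta (Os01t0204000-01) rose by 0.36 (adjusted p = 0.0481), and the small subunit Os03t0128500-01 was at 0.11 (adjusted p = 0.472). Os08t0163300-00, described only as similar to delta DNA polymerase, fell to 39.2, 36.4 and 36.7 cpm in NIL-Prl5ST-1+Pbl6ST-1, against 47, 50 and 42 cpm in NIL-Prl5ST-1 (log2 fold change -0.31, SE 0.0979, adjusted p = 0.0313 by edgeR). The catalytic subunit of polymerase alpha (Os01t0868300-01), which begins the strands with primase, rose by 0.53 (adjusted p = 0.0131). Polymerase epsilon subunit 2 (Os05t0160800-01) rose by 0.52 (adjusted p = 0.0124), while subunit 3 (Os09t0568200-01) was at -0.21 (adjusted p = 0.151).

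RNR joins large subunits, which hold the active site, with small subunits, which hold a radical. The transcripts Os06t0168600-01 and Os02t0804900-00, described as ribonucleotide reductase, rose by 0.58 (SE 0.131, adjusted p = 0.00571 by edgeR) and 0.55 (adjusted p = 0.0191). The first had 72.3, 84.3 and 88.5 cpm in NIL-Prl5ST-1+Pbl6ST-1 and 47.4, 68.1 and 48.4 cpm in NIL-Prl5ST-1, with no overlap. The small chains Os06t0257450-00 and Os06t0127900-01 had log2 fold changes of 0.07 (adjusted p = 0.689) and 0.20 (adjusted p = 0.212) and were not called. The RNR-related Os08t0200100-01 fell, to 7.54, 8.77 and 7.22 cpm in NIL-Prl5ST-1+Pbl6ST-1 against 11.7, 12.6 and 10.5 cpm in NIL-Prl5ST-1 (log2 fold change -0.56, SE 0.131, adjusted p = 0.00707 by edgeR).

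The other DNA polymerases were split. Of 18 transcripts, 6 rose and 1, the polymerase I-like Os01t0874800-01, fell. The polymerase V family transcript Os02t0135700-01 had 43.4, 52.0 and 55.7 cpm in NIL-Prl5ST-1+Pbl6ST-1 and 25.5, 39.1 and 24.4 cpm in NIL-Prl5ST-1, a log2 fold change of 0.76 (SE 0.154, adjusted p = 0.00299 by edgeR). Os12t0291000-00, described as a DNA-directed DNA polymerase family protein, rose by 0.84 (SE 0.147, adjusted p = 0.00122 by edgeR). Os02t0511900-00, described only as DNA polymerase and next in number to a second such transcript that rose by 0.56, rose by 0.89 (SE 0.186, adjusted p = 0.00359 by edgeR). Its levels were low, at most 6.03 cpm in NIL-Prl5ST-1+Pbl6ST-1 and 3.68 cpm in NIL-Prl5ST-1. Os01t0730900-01, with domains of the gamma and tau subunits of polymerase III, was higher by 0.68 (SE 0.205, adjusted p = 0.0248 by edgeR). The PolI-like Os04t0637400-01 rose by 0.31 (SE 0.106, adjusted p = 0.0458 by edgeR). Polymerases of DNA repair did not pass the test: eta, which copies past damaged bases, was at -0.23 (Os01t0757800-01, adjusted p = 0.0959) and lambda at -0.29 (Os06t0237200-00, adjusted p = 0.0868). Of the retroelement transcripts, none of the 4 tested by edgeR was called or had an unadjusted p below 0.05. The methyltransferase Os10t0104900-01, of the kind that keeps DNA methylated after replication, rose by 0.49 (SE 0.132, adjusted p = 0.0148 by edgeR).

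**Figure D2:**
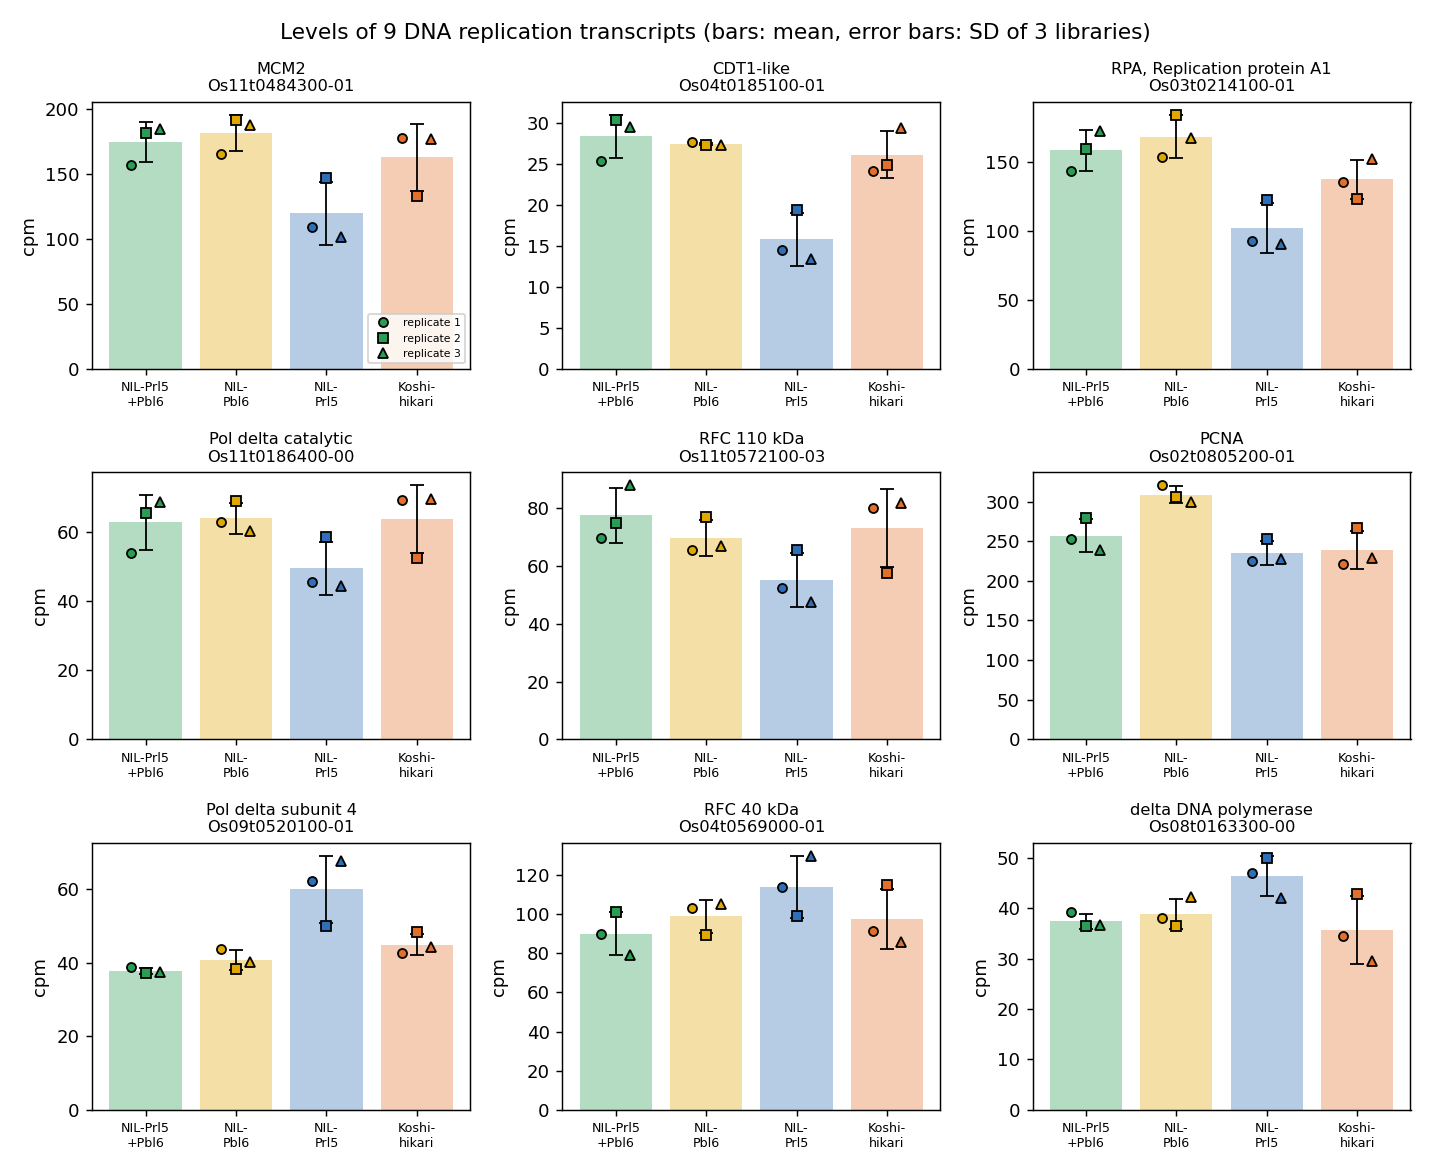
Levels in cpm (vertical axes, from 0) of 9 DNA replication transcripts in the 4 lines (horizontal axes). Bars are means, error bars the SD of 3 libraries and points the libraries by replicate number. CDT1 is at 13.4 to 19.4 cpm in NIL-Prl5ST-1 and at 24.1 cpm or more in all other libraries, and polymerase delta subunit 4 is highest in NIL-Prl5ST-1.

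The lowest library medians of the members were in NIL-Prl5ST-1. Centred on each transcript's mean over the 12 libraries, the members had library medians of -0.02, 0.07 and 0.19 log2 units in NIL-Prl5ST-1+Pbl6ST-1, 0.08, 0.09 and 0.11 in NIL-Pbl6ST-1, -0.20, -0.04 and -0.23 in NIL-Prl5ST-1 and 0.10, -0.02 and 0.14 in Koshihikari. These medians are over 1 transcript of each tested locus. Replicate 2 of NIL-Prl5ST-1, which stood apart over all transcripts, lay nearest to the other lines here too. Without it, 38 members were called, 32 higher and 6 lower, including all 33 called with every library, and 35.3% of all transcripts were called. Without replicate 1 of NIL-Prl5ST-1 the count was 10, which is 14.3% of the members, beside 12.3% of all transcripts. Without replicate 3 it was 12, or 17.1% of the members, beside 13.2% of all transcripts, so in these 2 fits the share of members called lay near that of all transcripts. Leaving out replicates 1, 2 and 3 of NIL-Prl5ST-1+Pbl6ST-1 gave 24, 20 and 15 members, beside 18.8%, 18.1% and 16% of all transcripts, and the 15 are 21.4% of the members. The median stayed between 0.19 and 0.31. Among the transcripts described above, CDT1, MCM2, replication protein A1, polymerase delta subunit 4, Os06t0168600-01, Os08t0200100-01, Os02t0135700-01, Os02t0511900-00 and Os12t0291000-00 passed the threshold in all 6 of these fits. The calls of ORC1, Os02t0797400-01, RFC 110 kDa and Os01t0730900-01 were lost without replicate 1 or 3 of NIL-Prl5ST-1 or replicate 3 of NIL-Prl5ST-1+Pbl6ST-1. Those of MCM3, RFC 40 kDa, RPA 70 kDa, Os08t0163300-00 and the methyltransferase held in 2 of the 6 fits, and that of Os04t0637400-01 in 1. The calls of MCM4, ORC3, the Cdc27-like subunit, polymerase alpha, polymerase epsilon subunit 2 and Os02t0804900-00 were not followed in these fits.

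**Figure D3:**
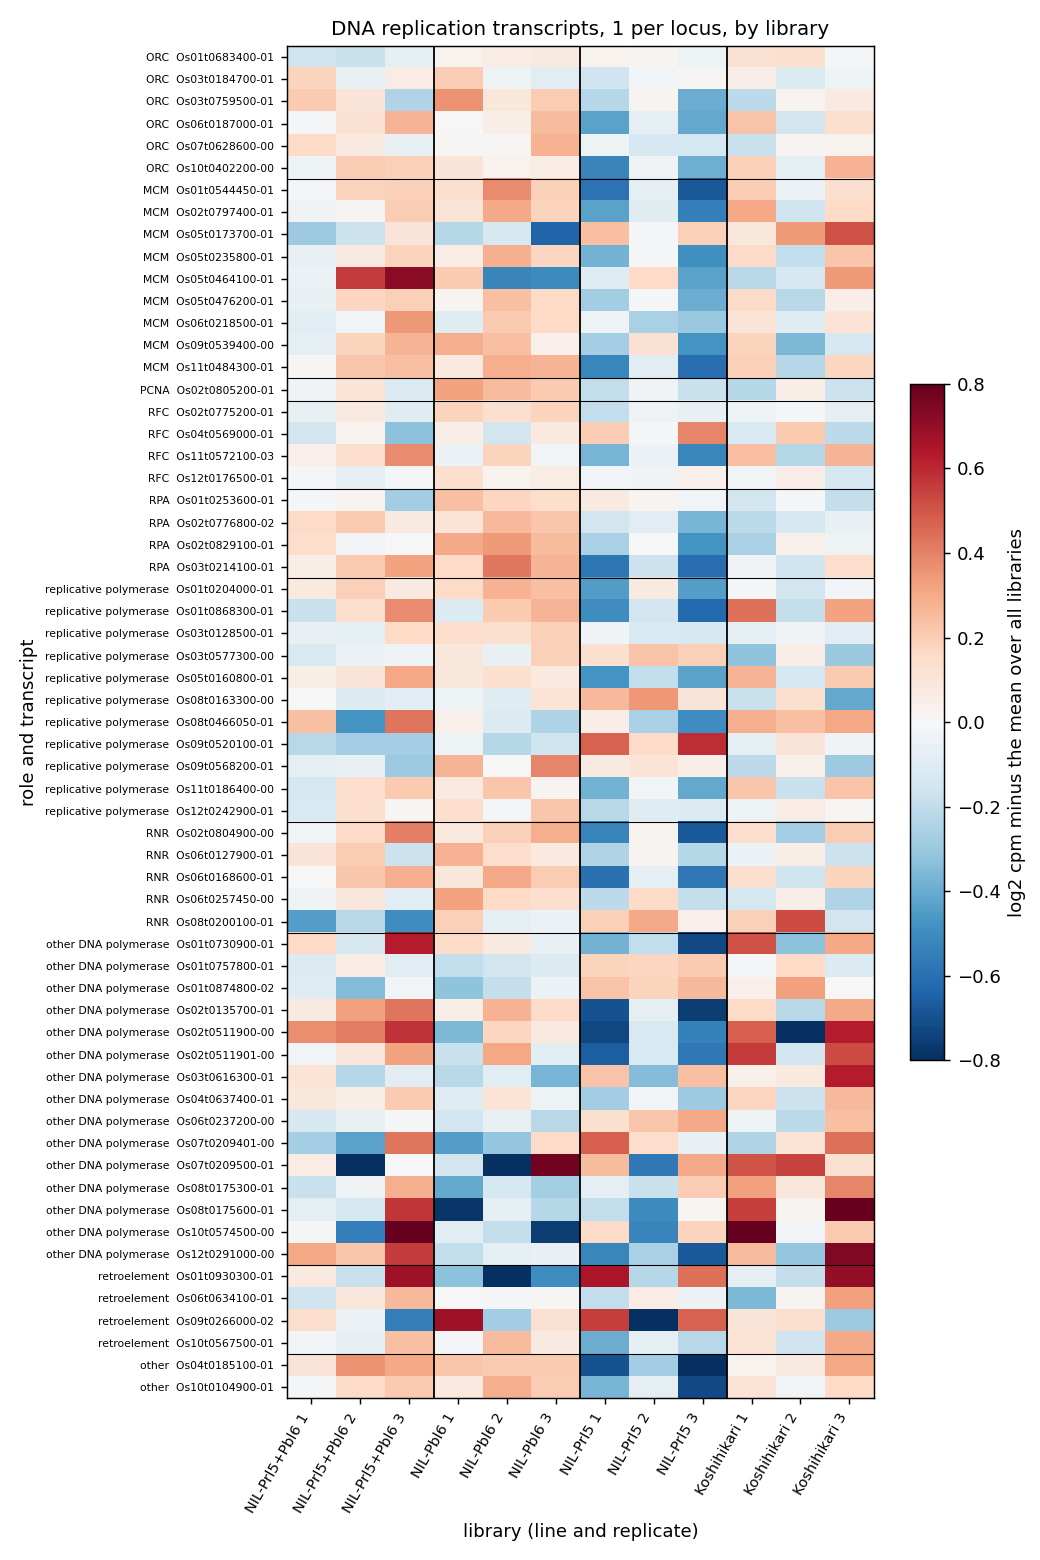
Log2 cpm minus the mean over all 12 libraries (colour) for 1 transcript of each of the 61 tested loci (rows, by role) in each library (columns, by line and replicate). Blue rows in NIL-Prl5ST-1 replicates 1 and 3 are members with low levels there, and the red rows in the same columns include polymerase delta subunit 4 and RFC 40 kDa.

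Fold changes also moved with the size of the protein. Since the table gives no transcript lengths, transcripts outside the members whose description states a mass in kDa were used, 152 loci after heat shock proteins were left out. This grouping was chosen after seeing the values. In NIL-Prl5ST-1+Pbl6ST-1 against NIL-Prl5ST-1, the 103 loci of at most 30 kDa had a median log2 fold change of -0.28, the 24 loci over 30 and up to 60 kDa of 0.11 and the 25 loci over 60 kDa of 0.24. Across these loci, which share the same libraries, Spearman's rho between mass and fold change was 0.668 and Pearson's r 0.498. Among the members with a stated mass, RFC 110 kDa and RPA 70 kDa rose and RFC 40 kDa fell, while RFC 36 kDa, at 0.08, and RPA 30 kDa, the smallest, at 0.28, were not called. The part of mass or transcript length in the members' differences was not tested. In NIL-Pbl6ST-1 against Koshihikari the same rho was -0.0368.

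**Figure D4:**
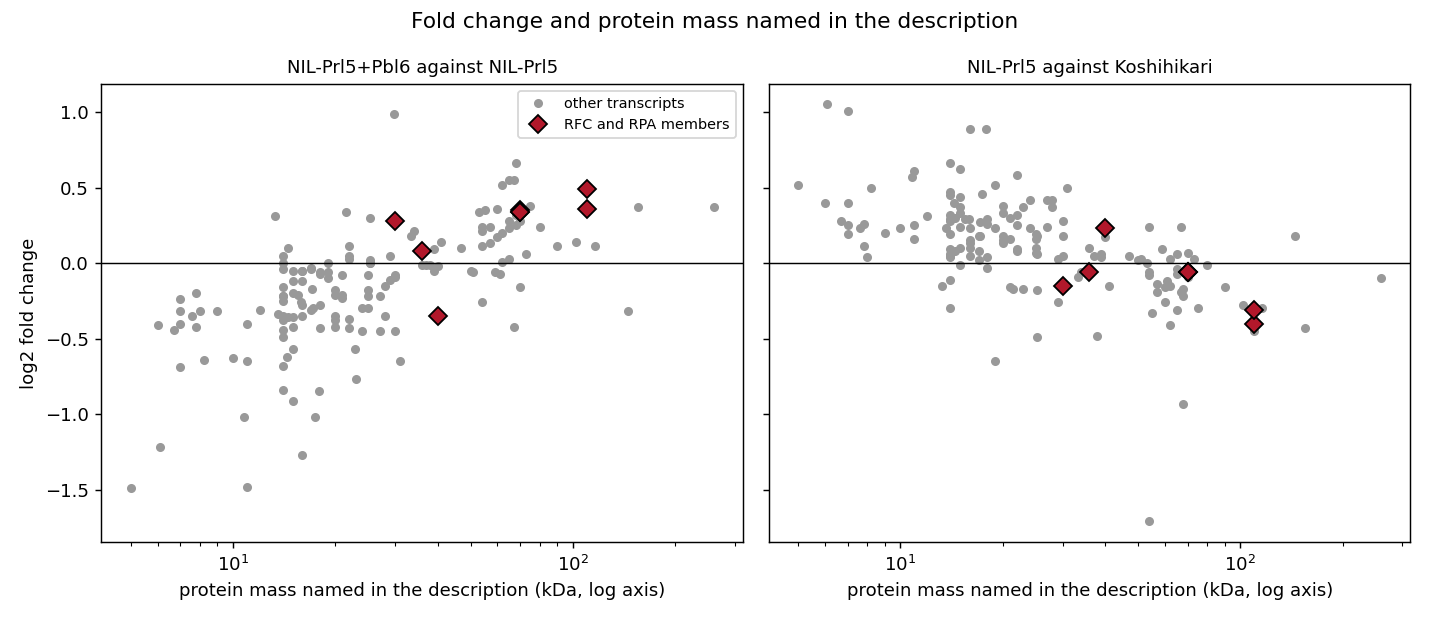
Log2 fold change (vertical axis) against the protein mass named in the description (horizontal log axis, kDa) for 152 transcripts outside the members (grey) and the RFC and RPA transcripts with a stated mass (diamonds). In NIL-Prl5ST-1+Pbl6ST-1 against NIL-Prl5ST-1 (left) rho is 0.668 and in NIL-Prl5ST-1 against Koshihikari (right) it is -0.598 over the grey points.

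NIL-Pbl6ST-1 was compared with Koshihikari to see the Pbl6 segment alone. Here 7 members were called, 4 higher and 3 lower. This is 10% of the members, near the 8.49% of all transcripts that were called (3.07% higher and 5.42% lower). At an unadjusted p below 0.05, 13 members were higher and 6 lower, where 25.3% of all transcripts had such a p, 11.6% higher and 13.7% lower. The 4 members called higher were PCNA and RPA transcripts, and the 3 called lower were PolI-like polymerases. PCNA had 321, 306 and 299 cpm in NIL-Pbl6ST-1 and 221, 267 and 229 cpm in Koshihikari. The lines did not overlap and the log2 fold change was 0.37 (SE 0.0968, adjusted p = 0.0361 by edgeR).

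All 6 RPA transcripts, of 4 loci, were higher in every library of NIL-Pbl6ST-1 than in any of Koshihikari. Among all transcripts, 14.9% were separate in this direction. RPA 30 kDa had 47.0, 48.4 and 45.6 cpm in NIL-Pbl6ST-1 and 32, 39.4 and 37.3 cpm in Koshihikari, a log2 fold change of 0.37 (SE 0.0968, adjusted p = 0.0333 by edgeR). RPA 70 kDa (Os02t0776800-02) had 39.5, 43.9 and 42.7 cpm in NIL-Pbl6ST-1 and 31.6, 33.6 and 35.2 cpm in Koshihikari, a log2 fold change of 0.33 (SE 0.0898, adjusted p = 0.0438 by edgeR). The RPA3-like transcript was at 0.30 (SE 0.0878, adjusted p = 0.0551 by edgeR) and replication protein A1 at 0.29 (SE 0.104, adjusted p = 0.0999 by edgeR), both short of the threshold. The calls of PCNA, RPA 30 kDa and RPA 70 kDa held without Koshihikari replicate 2 and were lost when any 1 of the other 5 libraries was left out.

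Among the PolI-like polymerases, which in plants copy the DNA of plastids and mitochondria, Os08t0175300-01 had 20.9, 25.2 and 23.0 cpm in NIL-Pbl6ST-1 and 34.9, 29.5 and 36.5 cpm in Koshihikari. It fell by 0.55 on the log2 scale (SE 0.11, adjusted p = 0.00933 by edgeR). Os08t0175600-01, of the same description, fell to 3.87, 6.31 and 5.70 cpm in NIL-Pbl6ST-1, against 9.83, 6.76 and 12.3 cpm in Koshihikari (log2 fold change -0.89, SE 0.224, adjusted p = 0.0301 by edgeR). Reads may be shared between these similar genes. The call of Os08t0175300-01 was lost without NIL-Pbl6ST-1 replicate 1, and that of Os08t0175600-01 held in 2 of the 6 fits with 1 library left out. Of the 18 other DNA polymerase transcripts, 17 had negative values in NIL-Pbl6ST-1, with a median of -0.33, against 0.00 over all transcripts, and 3 were called. The MCM, ORC, RFC and RNR transcripts gave no call by edgeR, with medians between 0.02 and 0.14, and 1 MCM, 1 RFC and 2 RNR transcripts had an unadjusted p below 0.05. The count of called members was 20 without Koshihikari replicate 2 (11 higher and 9 lower, with 23.2% of all transcripts called). It was 0 without NIL-Pbl6ST-1 replicate 1, with 3.37% of all transcripts called. Without any other library it was 2 or 3, with 3.85% to 5.56% of all transcripts called.

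In NIL-Prl5ST-1 against Koshihikari, the Prl5 segment alone, no member was called by edgeR, where 0.743% of all transcripts were (0.382% higher and 0.36% lower). At an unadjusted p below 0.05, 4 members were higher and 25 lower, where 12.3% of all transcripts were higher and 12.7% lower, and DESeq2 called 12 members and 6.34% of all transcripts. Of the 70 members, 53 had negative values and the median was -0.19, against -0.01 over all transcripts. This comparison shares the NIL-Prl5ST-1 libraries with the one described first, so the same low libraries enter both. The libraries of the lines were separate for 5 members that were higher and 9 that were lower, where 12.7% and 11.7% of all transcripts were. CDT1 came closest to a call, at -0.72 (SE 0.147, adjusted p = 0.0502 by edgeR), with all 3 libraries of NIL-Prl5ST-1 below those of Koshihikari. All 11 MCM transcripts had negative values, from -0.52 for MCM4 to -0.09 for MCM10. Polymerase delta subunit 4 was at 0.42 (adjusted p = 0.0922 by edgeR) and its catalytic subunit at -0.36 (SE 0.139, adjusted p = 0.142 by edgeR).

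The result of this comparison depended on the 2 libraries that stood apart. Without Koshihikari replicate 2, 28 members were called, 5 higher and 23 lower, with 20.8% of all transcripts called. Without NIL-Prl5ST-1 replicate 2, 22 were called, 2 higher and 20 lower, with 11.3% of all transcripts called. Without both, the count was 34, with 7 higher and 27 lower and 36.8% of all transcripts called. Leaving out any of the other 4 libraries gave 0.

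**Figure D5:**
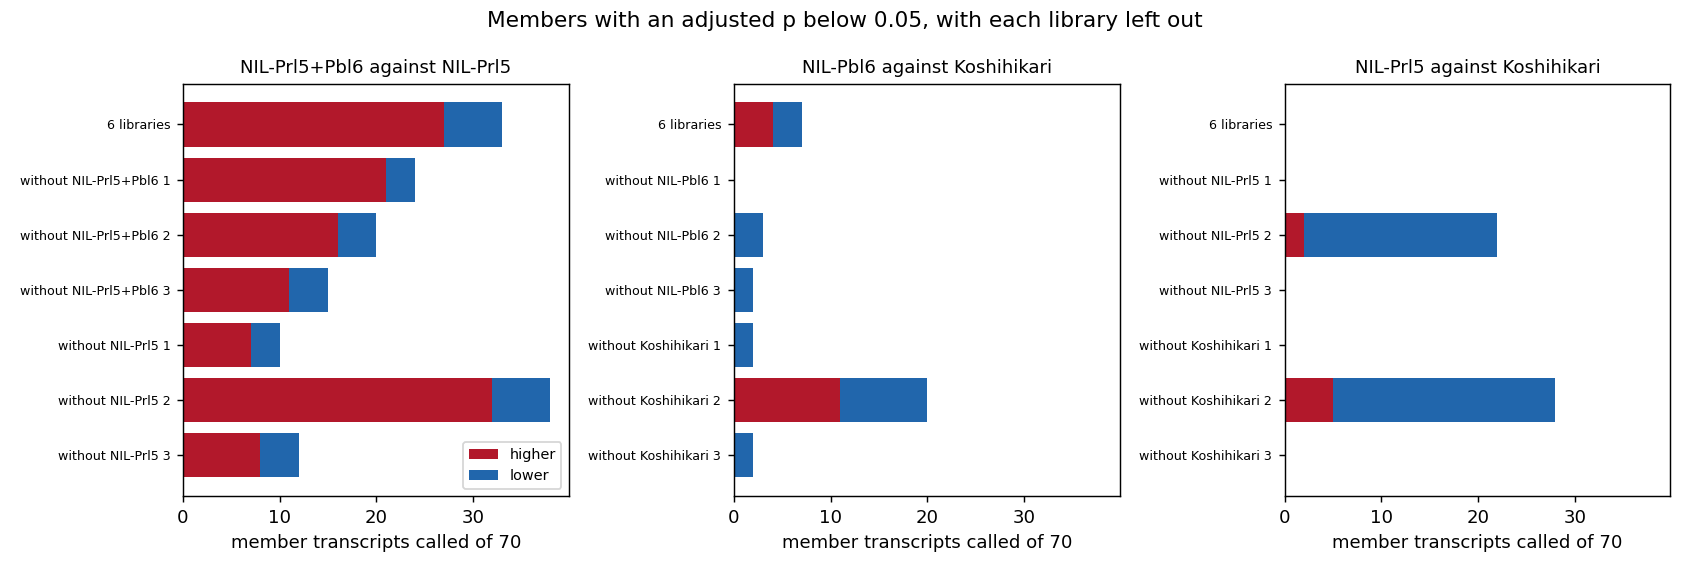
Number of member transcripts called of 70 (horizontal axis), higher in red and lower in blue, with all 6 libraries and with each library left out (rows), in 3 comparisons. In NIL-Prl5ST-1 against Koshihikari calls appear only without NIL-Prl5ST-1 replicate 2 (22) or Koshihikari replicate 2 (28).

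No difference was called where the line with both segments was set against Koshihikari. In NIL-Prl5ST-1+Pbl6ST-1 against Koshihikari no member was called by edgeR or by DESeq2, where edgeR called 2.16% of all transcripts, and 3 members were higher and 4 lower at an unadjusted p below 0.05. Over all transcripts 0.863% were called higher and 1.3% lower, and 13.8% had an unadjusted p below 0.05, 6.57% higher and 7.2% lower. The libraries of the lines were separate for 4 members that were higher and 7 that were lower, where 10.5% of all transcripts were separate upwards and 9.65% downwards. The median was 0.03. The 3 transcripts of RPA 70 kDa were higher in every library, at 0.27 to 0.28 (adjusted p = 0.182 to 0.204), and the RNR-related Os08t0200100-01 was at -0.59 (adjusted p = 0.122). MCM2 averaged 175 ± 15.3 cpm in NIL-Prl5ST-1+Pbl6ST-1 and 163 ± 25.5 cpm in Koshihikari (SD, n = 3 each), within the spread of the libraries.

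In NIL-Prl5ST-1+Pbl6ST-1 against NIL-Pbl6ST-1, the Prl5 segment in the presence of the other, no member was called by edgeR, where 0.777% of all transcripts were (0.382% higher and 0.395% lower). DESeq2 called 1, and 7 were higher and 7 lower at an unadjusted p below 0.05, where 15.9% of all transcripts had such a p, 8.19% higher and 7.75% lower. The libraries were separate for 4 members that were higher and 9 that were lower, where 9.82% and 10.4% of all transcripts were. The median was -0.03. PCNA, at 253, 279 and 239 cpm in NIL-Prl5ST-1+Pbl6ST-1 and 321, 306 and 299 cpm in NIL-Pbl6ST-1, did not overlap, but its log2 fold change of -0.27 was not called (adjusted p = 0.143 by edgeR). The other DNA polymerases had 16 positive values of 18, from -0.28 to 0.50.

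A further fit over the 12 libraries asked whether the effect of Prl5 depended on the line it was measured in (the interaction of the segments). It was past the threshold for 3 members, all positive, where 3.93% of all transcripts were called, 2.08% positive and 1.85% negative. These were CDT1 at 0.77 (SE 0.178, adjusted p = 0.0413 by edgeR), Os12t0291000-00 at 1.25 (SE 0.279, adjusted p = 0.0413 by edgeR) and Os08t0175600-01 at 1.25 (SE 0.337, adjusted p = 0.0485 by edgeR). None of the 46 core members was called by edgeR, and 9 were positive and 6 negative at an unadjusted p below 0.05. Over the 70 members these were 20 positive and 6 negative, where 28.9% of all transcripts had such a p, 15% positive and 13.9% negative. Polymerase delta subunit 4, at -0.53 (SE 0.147), had an adjusted p of 0.0521 by edgeR. Without Koshihikari replicate 2 the interaction was called for 28 members and 24% of all transcripts, without NIL-Prl5ST-1 replicate 2 for 24 members and 16.5% of all transcripts, and for 0 to 3 members without any other library.

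Genes that act beside the members were looked at through lists of words in the descriptions. Between NIL-Prl5ST-1+Pbl6ST-1 and NIL-Prl5ST-1, 5 of 11 transcripts of the list for loading and firing of origins rose and 1 fell. In that comparison 13.2% of all transcripts were called higher and 12.1% lower. Of these 11, 3 had been caught only by their letters (CPSF160, whose 2 transcripts rose, and Cdc73). CDC6 (Os01t0856000-01), which works with CDT1, averaged 7.83 ± 1.41 cpm in NIL-Prl5ST-1+Pbl6ST-1 and 4.17 ± 0.89 cpm in NIL-Prl5ST-1 (SD), a log2 fold change of 0.91 (adjusted p = 0.00306). The CDC45-like Os12t0124700-01 and Os11t0128400-01, partners of the MCM ring in the active helicase, rose by 0.71 and 0.65. The Psf2 component of GINS (Os01t0248600-01), the other partner, fell by 0.57, and SLD5 (Os05t0143400-01) and PSF1 (Os05t0453900-00), also of GINS, were at -0.11 and -0.34 and not called. A second CDT1-like transcript, Os10t0489900-01 (CDT1a), was at 0.26 (adjusted p = 0.0918).

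Of the E2F and retinoblastoma list, 6 of 12 transcripts rose and none fell by edgeR in the same comparison. Over all transcripts 13.2% were called higher and 12.1% lower. The 6 included the retinoblastoma-related Os08t0538700-01 at 0.49 (adjusted p = 0.0106) and the E2F homolog Os12t0158800-01 at 0.41 (adjusted p = 0.007). Both retinoblastoma-related loci are counted by 2 transcripts of nearly equal level, and all of these are among the 6. The E2F family Os02t0739700-01 rose by 0.33 (adjusted p = 0.0411 by edgeR), and the other E2F transcripts were not called. An E2F-associated phosphoprotein (Os02t0635700-01) and a retinoblastoma-binding protein-like transcript (Os03t0207900-02) are also in the list and were not called. Of 31 transcripts for completing strands and making precursors, 8 rose and 3 fell. DNA primase (Os05t0358200-01) rose by 0.48 and a DNA ligase (Os10t0489200-01) by 0.54, while both transcripts of flap endonuclease 1b (Os03t0834000-01 and Os03t0834000-02) fell, by 0.33 and 0.35. Of 56 transcripts of mitosis, 27 rose and 2 fell, with a median of 0.33, beside the same shares of all transcripts. That list is mostly kinesins of any kind and holds a calcyclin-binding protein caught by its letters. Of its B-type cyclins and cyclin-dependent kinases B, only Os05t0493500-00 was called (0.33, adjusted p = 0.0356 by edgeR). Cyclin-B1-1 was at 0.03, kinase B1-1 at 0.10 and kinase B2-1 at 0.20, and all other calls were of kinesins.

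Core histones, which package newly made DNA, had a median of the opposite sign in NIL-Prl5ST-1+Pbl6ST-1 against NIL-Prl5ST-1. Of 49 tested, 3 fell and none rose by edgeR, where 12.1% of all transcripts were called lower and 13.2% higher. The median was -0.13, beside the median of 0.28 for the members. In NIL-Pbl6ST-1 against Koshihikari 12 of 49 rose, where 3.07% of all transcripts were called higher. The median was 0.39, beside 0.03 for the members and 0.13 for the core members. In NIL-Prl5ST-1 against Koshihikari 48 of 49 had positive values, with a median of 0.21. In NIL-Prl5ST-1+Pbl6ST-1 against NIL-Pbl6ST-1 47 were negative, with a median of -0.30. Neither comparison gave a call. The interaction was negative for all 49 (median -0.52) and called for 5, where 1.85% of all transcripts were called negative.

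Markers of green leaf tissue summed to the highest level in NIL-Prl5ST-1, where the members were lowest, with some overlap with Koshihikari. The summed level of 52 such genes, 4 of them at 0 in at least 1 library, was 179 to 204 cpm in NIL-Prl5ST-1+Pbl6ST-1, 164 to 176 cpm in NIL-Pbl6ST-1, 244 to 320 cpm in NIL-Prl5ST-1 and 183 to 261 cpm in Koshihikari. The 6 spikelet organ markers summed to 365 to 411, 363 to 409, 410 to 442 and 347 to 362 cpm in the same order of lines, and the 5 young panicle markers to 535 to 593, 634 to 655, 479 to 533 and 507 to 569 cpm. The part of tissue make-up or panicle age in the members' differences was not tested.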

How the data were processed

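The deposited values are whole-number counts of reads for each annotated rice transcript, which the authors left unscaled. The submitters' processing notes name bcl2fastq, Bowtie and the build IRGSP-1.0. Versions, strand and the treatment of reads matching several transcripts are not given in the sources used here. Counts were analysed with edgeR 4.0.16 in R 4.3.3: filterByExpr over the 12 libraries (count minimum 10, total 15), TMM, glmQLFit and glmQLFTest, two-sided, on the 6 libraries of a comparison, with Benjamini-Hochberg adjustment over 31643 transcripts. The log2 fold changes use the default prior count of edgeR. SE is the absolute log2 fold change over the square root of F. The scripts were tested on simulated data, with changes larger than those called for members between lines. This test gives no measure of how well changes of the sizes described here are found.

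Members and lists were chosen with earlier results of these data known. The role words differed from the plan in 2 ways: CDT1 and MCMT were put under other, and delta DNA polymerase under replicative polymerases. E2F target gene 1 was counted under loading and firing only. Transcripts named were, per comparison and direction, the 6 called loci with the largest change and, per role, the 3 loci with the highest mean cpm (1 for retroelements). Others were named after their values were seen, and neither these nor the word lists of other genes were followed with a library left out. An exact permutation test of a single transcript, two-sided, cannot go below p = 0.1 with 3 libraries against 3. DESeq2 1.42.0, its size factors, other filters, 1 transcript per locus, a block by replicate number, all 12 libraries in 1 fit and each library left out were the alternatives. No pair of libraries of a line agreed within counting noise. No genome, transcript length or promoter sequence was used here.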

Additional observations from a re-analysis of the deposited data

Results flagged for a closer look

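For 3 transcripts the effect of the Prl5 segment differed between the lines with and without the Pbl6 segment, by the interaction term of edgeR over 12 libraries. They are 4.29% of the members tested, near the 3.93% of all transcripts called. All 3 calls were lost with a block by replicate number. The CDT1-like Os04t0185100-01 had an interaction of 0.77 on the log2 scale. The Prl5 segment went with a log2 fold change of 0.05 in the presence of the Pbl6 segment (NIL-Prl5ST-1+Pbl6ST-1 against NIL-Pbl6ST-1) and of -0.72 in its absence (NIL-Prl5ST-1 against Koshihikari). Os12t0291000-00 had an interaction of 1.25, from 0.48 and -0.77, and Os08t0175600-01 one of 1.25, from 0.50 and -0.75. When each of the 12 libraries was left out in turn, the call held in 4 fits for CDT1, in 4 for Os12t0291000-00 and in 3 for Os08t0175600-01, and no fit turned the direction.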

How the results depend on the processing

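In NIL-Prl5ST-1+Pbl6ST-1 against NIL-Prl5ST-1, 33 of 70 members were called. Under the other tools, filters and fits with all libraries the count was 27 to 34, with 20.8% to 27.8% of all transcripts called. With 1 library left out it was 10 to 38, with 12.3% to 35.3% of all transcripts called. The 27 is of 58 members tested with 1 transcript per locus, and the other filters tested 72 and 67 members. In NIL-Prl5ST-1 against Koshihikari, where no member was called, the count was 1 with DESeq2 size factors (0.803% of all transcripts called), 12 with DESeq2 (6.34%), 7 with no filter (4.21%), 17 with all 12 libraries in 1 fit (11.5%), 1 with 1 transcript per locus (0.912%) and 34 without replicate 2 of both lines (36.8%, chosen after seeing the data). With 1 library left out it was 0 to 28. In NIL-Pbl6ST-1 against Koshihikari the count of 7 was 4 with 1 transcript per locus (7.84%) and 0 to 20 with 1 library left out (3.37% to 23.2%). In NIL-Prl5ST-1+Pbl6ST-1 against Koshihikari it was 1 with all 12 libraries in 1 fit (3.37%), and against NIL-Pbl6ST-1 it was 1 with DESeq2 (1.81%) and 3 with no filter (2.35%). In both, leaving out 1 library gave 0 to 1. The interaction was called for 11 members with DESeq2 (11.2% of all transcripts), 10 with no filter (7.06%), 35 without the 2 replicates named above (32.1%) and 0 to 28 with 1 library left out. The cause was not tested.

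Libraries with the same replicate number did not deviate together: of 18 such pairs 2 had a correlation above 0.1, from -0.292 to 0.344. With a block by replicate number the counts were 34 in NIL-Prl5ST-1+Pbl6ST-1 against NIL-Prl5ST-1 (27.4% of all transcripts), 3 in NIL-Pbl6ST-1 against Koshihikari (5.53%), 0 in NIL-Prl5ST-1 against Koshihikari (0.218%), 1 in NIL-Prl5ST-1+Pbl6ST-1 against Koshihikari (4.08%) and 0 for the interaction (0.449%). Of the called values of transcripts named by rule, no alternative turned the direction. Transcripts with few counts have the widest errors.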
